A study of Mus musculus with 72 samples.

Results

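Cd5l, Mpeg1, Stab1, Adgre1, Cybb, Tgfbi and Mrc1 are 7 genes of mature mouse macrophages that were chosen by their lower transcript level in bone marrow-derived macrophages labelled Setd1bKO than in control cells. They are 7 of the 18472 genes that appear in any of the series' 3 expression tables. The marrow-derived table lists all 7. The table of the RAW264.7 experiments with dexamethasone lists 4 of them (Mpeg1, Cybb, Adgre1 and Stab1), and the table of the experiment with interferon beta lists 6, all but Tgfbi. Since the difference between the libraries labelled Setd1bKO and the controls chose the genes, it is given for them as a description with no test.

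Tissue macrophages take up and destroy microbes, dead cells and modified proteins, and their surface carries receptors for this work. Stab1 (stabilin 1) and Mrc1 (the mannose receptor, CD206) are endocytic receptors, and Adgre1 encodes F4/80, an adhesion G protein-coupled receptor used as the standard surface marker of mouse macrophages. Mpeg1 encodes perforin-2, a pore-forming protein of endosomal membranes, and Cybb encodes gp91phox, the membrane subunit of the NADPH oxidase that makes superoxide. Cd5l (AIM) and Tgfbi are secreted, the former a scavenger receptor-like protein and the latter a matrix protein induced by TGF-beta, so that not every gene of the 7 encodes a surface protein.

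The series measured polyA RNA in 72 libraries, 3 in each of 24 groups. Marrow-derived macrophages came from C57BL/6J mice, were grown with medium conditioned by L929 cells, and were titled wt with the genotype label Setd1bHet (called control here) or labelled Setd1bKO. RAW264.7, a male macrophage line of BALB/c origin, was wild type or Setd1aDel/+, a heterozygous Setd1a deletion called Setd1aDel here. Setd1a and Setd1b encode methyltransferases of histone H3 lysine 4 that work within COMPASS complexes, and the series set out to study Setd1b as a partner of the glucocorticoid receptor and the expression that depends on Setd1a. Marrow-derived cells and RAW264.7 cells of the 16 h experiment received vehicle (0.1% ethanol, 16 h), bacterial lipopolysaccharide (LPS, 100 ng/ml for the last 6 h, with ethanol), or the synthetic glucocorticoid dexamethasone (Dex, 1 uM for 16 h) with LPS. In the 6 h experiment ethanol or Dex was given for 6 h, and Dex alone was an added treatment. In the RAW264.7 experiment with interferon, cells of both genotypes received LPS, or LPS together with interferon beta (IFNB1) at 10 ng/ml, for 6 h. The sample labels mark the marrow-derived cells as female while the culture protocol speaks of male mice, and for the RAW264.7 cells treated with Dex the series text writes the LPS dose per ul instead of per ml. The labels give no age, no Cre driver and no number of Setd1aDel clones, and they do not say whether replicates were separate animals or cultures. The spread that the p-values measure, that of these libraries, may thus be technical.

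Values are TPM (abundances corrected for transcript length and scaled to a fixed total), summed per gene. Listed genes summed to 837032 to 909974 TPM per marrow-derived library and to 894029 to 912839 TPM per RAW264.7 library, the number of reads behind them is unknown, and no pair of libraries was identical. Markers of macrophages were high in the marrow-derived cells: 10 of 10 were listed, 1 of them Adgre1 itself, and their summed level was 38446 to 39351 TPM in the control vehicle libraries and 25160.0 to 25937 TPM in those labelled Setd1bKO, most of it lysozyme 2 (Lyz2). The sum was 25566 to 27351 and 17674 to 17897 TPM with LPS, and 29187 to 30734 and 19373 to 20237 TPM with Dex and LPS, so the ranges of the genotypes did not overlap. Of the markers of other cell types, only the granule gene S100a8 (of 10 neutrophil and granule genes), Ighm (of 6 B lymphocyte genes) and Pdgfrb (of 8 stroma and endothelium genes) are listed in that table, and none of the 8 markers of dendritic cells, 7 of T and NK lymphocytes, 6 of erythroid cells and 7 of mast cells and basophils. S100a8 was at 37.6 to 41.9 TPM in control and 24.2 to 27.2 TPM in labelled Setd1bKO vehicle libraries, and at 273 to 303 and 449 to 521 TPM with Dex and LPS. Ighm was at 5.08 to 6.46 and 2.94 to 5.15 TPM, and Pdgfrb at 0.0331 to 0.0406 and 0.0551 to 0.124 TPM, with vehicle. With LPS Pdgfrb was at 8.42 to 9.15 and 4.80 to 5.49 TPM, and with Dex and LPS at 9.82 to 10.7 and 3.09 to 3.80 TPM, so it was lower under the Setd1bKO label there. Its vehicle values lay far below 1 TPM, and as the number of reads is unknown, no direction is read from them. Whether these markers have a part in the results was not tested.

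The targeted genes were looked at first. Setd1b stood at 3.80, 5.13 and 4.70 TPM in the control vehicle libraries and at 10.3, 9.65 and 10.2 TPM in those labelled Setd1bKO. It was thus higher under the knockout label, by 1.00 ± 0.21 (SE) on the log2(TPM + 1) scale (limma, adjusted p = 0.00235), and with LPS and with Dex and LPS the groups overlapped (adjusted p = 0.49 and 0.68). A total per gene does not separate transcripts with and without the deleted part, so it does not check the label, and the cells are called "labelled Setd1bKO" throughout. Setd1a was lower in the Setd1aDel cells in all 9 comparisons (log2 differences of -0.38 to -1.10), and passed the threshold in the 16 h and IFNB1 experiments but not in the 6 h experiment (adjusted p = 0.0557 to 0.196).

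The genes lie on 7 chromosomes (GRCm38, GENCODE vM21): Cd5l on chromosome 3, 87357881 to 87371073, Mpeg1 on chromosome 19, 12460779 to 12465283, Stab1 on chromosome 14, 31139013 to 31168641, Adgre1 on chromosome 17, 57358691 to 57483527, Cybb on chromosome X, 9435252 to 9487771, Tgfbi on chromosome 13, 56609523 to 56639562 and Mrc1 on chromosome 2, 14229392 to 14332057. Stab1 overlaps Nt5dc2 on the opposite strand and Mrc1 contains the microRNA gene Mir511. RefSeq promoter sequence (GRCm38.p6) was matched for 6 of the 7, all but Adgre1. The 250 bases before the annotated start are printed for Cd5l and Mpeg1, which differed most between the marrow-derived genotypes with vehicle, and for Cybb, which differed most between the RAW264.7 genotypes at 16 h. The RefSeq start of Cybb used here lies inside the span of the GENCODE gene, so other transcripts may start elsewhere. The sequences run 5′ to 3′ on the strand of the gene, and capitals mark the motif matches described after them.
Cd5l (chr3:87357631-87357880, plus strand): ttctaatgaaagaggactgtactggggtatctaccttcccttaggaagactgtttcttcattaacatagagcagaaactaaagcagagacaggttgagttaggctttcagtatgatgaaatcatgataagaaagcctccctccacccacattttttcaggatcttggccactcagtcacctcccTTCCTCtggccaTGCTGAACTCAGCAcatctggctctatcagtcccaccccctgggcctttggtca
Mpeg1 (chr19:12460520-12460769, plus strand): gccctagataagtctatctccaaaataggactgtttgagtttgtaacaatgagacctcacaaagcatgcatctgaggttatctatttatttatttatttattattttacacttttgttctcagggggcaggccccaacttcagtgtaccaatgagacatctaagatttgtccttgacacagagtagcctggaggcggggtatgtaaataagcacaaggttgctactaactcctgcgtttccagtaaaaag
Cybb (chrX:9469325-9469574, minus strand): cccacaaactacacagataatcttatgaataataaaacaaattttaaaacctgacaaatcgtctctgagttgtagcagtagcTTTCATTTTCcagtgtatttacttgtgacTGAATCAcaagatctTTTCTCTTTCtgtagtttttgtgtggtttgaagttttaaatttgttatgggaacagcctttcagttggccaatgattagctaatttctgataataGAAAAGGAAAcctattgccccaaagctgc

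5 motifs were searched on both strands of the 250 bases. The capitals in Cd5l are TGCTGAACTCAGCA, 54 to 41 bases before the start, and TTCCTC, 66 to 61 bases before it. The former matches the palindromic MAF recognition element (TGCTGANTCAGCA or TGCTGANNTCAGCA), which 4 of 32851 RefSeq promoters hold (0.0122%). This motif was chosen after the sequence had been read. The latter is the reverse complement of GAGGAA, the core bound by the macrophage factor PU.1, which 23.3% of promoters hold and which Stab1 and Mrc1 also have. The capitals in Cybb are TGAATCA (AP-1, TGANTCA, in 6.75% of promoters, a string that the shorter MAF element contains) and 3 matches to GAAANNGAAA on either strand, a form of the interferon-stimulated element found in 2.98% of promoters, with 1 match in Tgfbi. The Mpeg1 stretch holds none of these, and none of the 6 promoters holds TATAAA, which 12.4% of promoters do. CpG pairs numbered 0 in Cd5l, 1 in Cybb, 2 in Mpeg1, 3 in Mrc1, 5 in Stab1 and 15 in Tgfbi, against a median of 6 over all promoters.

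In marrow-derived macrophages all 7 genes were lower under the Setd1bKO label with each treatment, and for none did the groups overlap. Groups of libraries that lay wholly below the controls were found for 25.5% of all genes tested with vehicle, 15.8% with LPS and 14.0% with Dex and LPS. With vehicle the loss was largest for Cd5l and Mpeg1, which held 10.1% and 12.1% of the mean control level, and with each treatment it was smallest for Mrc1. Differences are given on the log2(TPM + 1) scale, labelled Setd1bKO minus control. The members' median was -2.26 against -0.02 over all genes tested with vehicle, -2.35 against 0.10 over all genes tested with LPS and -2.19 against 0.07 over all genes tested with Dex and LPS. In bulk RNA, fewer cells that express a gene and less of its RNA per cell cannot be told apart.

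**Figure D1:**
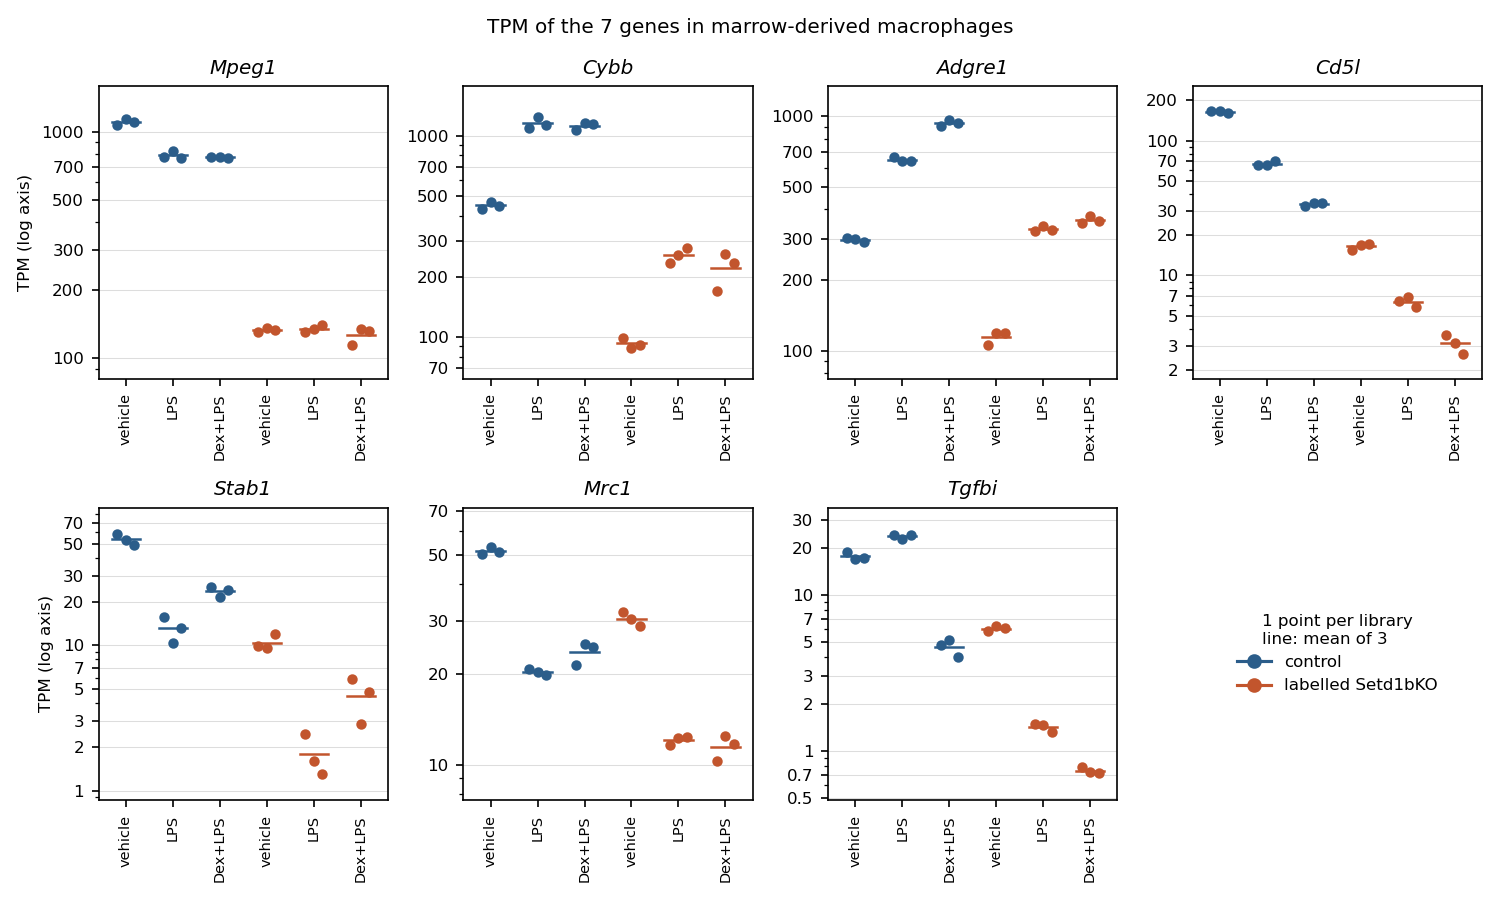
TPM (log axis, a separate range per gene) of the 7 genes in each marrow-derived library, with 3 points and their mean per group. In every panel the 3 libraries labelled Setd1bKO lie below the 3 controls of the same treatment.

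Among the endocytic receptors, Stab1 had the wider loss. In the control libraries Stab1 stood at 58.8, 53.3 and 48.8 TPM with vehicle, 15.8, 10.4 and 13.2 with LPS and 25.1, 21.4 and 24.0 with Dex and LPS. The libraries labelled Setd1bKO stood at 9.85, 9.56 and 11.9 TPM with vehicle, 2.47, 1.60 and 1.30 with LPS and 5.86, 2.86 and 4.76 with Dex and LPS. The difference was -2.26, -2.35 and -2.19 for the 3 treatments, and the mean with vehicle was 5.13-fold lower. Labelled Setd1bKO cells with vehicle overlapped control cells with LPS, while all other neighbours in the order of Stab1 levels were apart.

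Mrc1 had the smallest loss of the 7. Control levels of Mrc1 were 50.3, 52.9 and 50.9 TPM with vehicle, 20.8, 20.3 and 20.0 with LPS and 21.5, 25.2 and 24.6 with Dex and LPS. Under the Setd1bKO label they were 32.2, 30.6 and 28.9 TPM with vehicle, 11.6, 12.3 and 12.3 with LPS and 10.3, 12.4 and 11.7 with Dex and LPS. Its difference was -0.73, -0.71 and -0.99, and its vehicle mean was 1.68-fold lower. The order of its levels followed the treatment first: both vehicle groups lay above all groups with LPS, and within the labelled Setd1bKO cells LPS and Dex with LPS overlapped.

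Adgre1, the F4/80 marker, kept more of its level than most. Its control libraries had 301, 298 and 289 TPM with vehicle, 668, 643 and 639.7 with LPS and 903, 961 and 935 with Dex and LPS. Those labelled Setd1bKO had 106, 119 and 119 TPM with vehicle, 322, 338 and 327 with LPS and 350.4, 373 and 357 with both agents. The difference was -1.36, -0.98 and -1.37, a mean 2.58-fold lower with vehicle and 1.98-fold lower with LPS. With LPS the labelled Setd1bKO libraries stood above the control libraries with vehicle, and no neighbours in the order of its 6 groups overlapped.

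The effector genes Mpeg1 and Cybb had the highest levels of the 7 in control cells with vehicle. Mpeg1 reached 1068, 1132 and 1105 TPM in the control libraries with vehicle, 774, 824 and 761 with LPS and 772, 771 and 767 with Dex and LPS. In those labelled Setd1bKO it reached 131, 136 and 133 TPM with vehicle, 131, 135 and 141 with LPS and 114, 135 and 132 with both agents. The difference was -3.04, -2.53 and -2.59, with a vehicle mean 8.26-fold lower. The 3 groups labelled Setd1bKO overlapped one another, as did the control groups with LPS and with Dex and LPS.

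Cybb was at 434, 471 and 448 TPM in control cells with vehicle, at 1089.9, 1236 and 1127 with LPS and at 1065, 1153 and 1137 with Dex and LPS. In labelled Setd1bKO cells the levels were 99.1, 88.7 and 91.6 TPM with vehicle, 234, 255 and 278 with LPS and 169, 259.8 and 234 with both agents. The difference of Cybb, the gp91phox oxidase subunit, was -2.26, -2.17 and -2.36, and its mean was 4.84-fold lower with vehicle. The highest labelled Setd1bKO library, with LPS, remained below the lowest control library with vehicle, and in both genotypes LPS and Dex with LPS overlapped. The first labelled Setd1bKO library with Dex and LPS was the lowest of its group for Cybb, Mpeg1, Adgre1 and Mrc1, and the highest for Stab1, Cd5l and Tgfbi.

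Of the secreted proteins, Cd5l stood at 6 separate levels. With vehicle the control libraries had 165, 165 and 159.8 TPM, with LPS 65.6, 66.0 and 70.8, and with Dex and LPS 32.9, 34.7 and 34.3. The corresponding levels under the Setd1bKO label were 15.5, 16.8 and 17.0 TPM, then 6.45, 6.88 and 5.78, then 3.59, 3.17 and 2.63. The difference was -3.24, -3.22 and -3.09, and the means were 9.94-, 10.6- and 10.9-fold lower. None of its 6 groups overlapped, and the lowest control group (Dex and LPS) lay above the highest labelled Setd1bKO group (vehicle).

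Tgfbi changed its distance with the treatment. Controls had 18.9, 17.0 and 17.2 TPM of Tgfbi with vehicle, 24.2, 22.7 and 24.4 with LPS and 4.79, 5.13 and 3.98 with Dex and LPS. Cells labelled Setd1bKO had 5.88, 6.27 and 6.09 TPM with vehicle, 1.49, 1.47 and 1.33 with LPS and 0.794, 0.732 and 0.719 with both agents. The difference was -1.40, -3.35 and -1.68, and the mean was 2.91-fold lower with vehicle but 16.7-fold lower with LPS. Control cells had more Tgfbi with LPS than with vehicle, and labelled Setd1bKO cells had less. Its lowest level, with Dex and LPS under the knockout label, was below 1 TPM, where the scale of log2(TPM + 1) understates a fold change.

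The response to LPS and to Dex, averaged over both genotypes, does not use the difference that chose the genes, and was tested. LPS raised Adgre1 and Cybb and lowered Cd5l, Mrc1 and Stab1. The mean response of Tgfbi was also a fall, although its control libraries all had more Tgfbi with LPS than with vehicle and the fall was that of the labelled Setd1bKO cells. Adgre1 rose by 1.32 ± 0.030, adjusted p = 4.49e-16 (limma, two-sided, adjusted by Benjamini-Hochberg), and Cybb by 1.40 ± 0.080, adjusted p = 6.70e-11. Stab1 changed by -2.01 ± 0.14, adjusted p = 6.36e-10, Mrc1 by -1.28 ± 0.048, Cd5l by -1.25 ± 0.053 and Tgfbi by -0.57 ± 0.052, with adjusted p of 2.41e-13, 1.19e-12 and 2.75e-08 for the last 3. With median-of-ratios scaling the changes of these 3 were smaller (-0.83, -0.81 and -0.17, with adjusted p = 0.0114 for Tgfbi). Mpeg1 changed by -0.23 ± 0.037, adjusted p = 2.16e-05, but by 0.23 with median-of-ratios scaling, so its direction depends on the scaling. In all, 2 members rose and 5 fell, where 24.2% of all genes rose and 64.4% fell. Over all genes the median change was -0.43, and scaling moved it up by 0.42, which left 42.0% of genes higher and 42.5% lower.

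Adding Dex to LPS raised Adgre1 and Stab1 and lowered Cd5l and Tgfbi. Stab1 regained part of its level (0.88 ± 0.14, adjusted p = 3.91e-05), and Adgre1 rose further (0.32 ± 0.030, adjusted p = 1.81e-07), by 0.12 with median-of-ratios scaling (adjusted p = 0.00932). Tgfbi fell by the most (-1.31 ± 0.052, adjusted p = 7.25e-12), followed by Cd5l (-0.90 ± 0.053, adjusted p = 7.20e-10). Mpeg1, Cybb and Mrc1 did not pass the threshold in limma on the mean of both genotypes (-0.06, -0.13 and 0.07, adjusted p = 0.148, 0.148 and 0.206). All 3 passed it as lower with median-of-ratios scaling (-0.26, -0.33 and -0.12), where the direction of Mrc1 also turned. Thus 2 members rose and 2 fell, where 52.7% of all genes rose and 16.9% fell (24.8% and 31.0% with scaling). Leaving out the second labelled Setd1bKO library with Dex and LPS brought Mpeg1 and Cybb past the threshold as lower (adjusted p = 0.0468 and 0.0247, over all alternatives 9.48e-07 to 0.429 and 0.000433 to 0.449), and leaving out the first brought Mrc1 past it as higher (adjusted p = 0.0472, over all alternatives 0.0184 to 0.443).

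Taken genotype by genotype, the LPS responses of Cd5l (-1.26 ± 0.075 in control and -1.24 ± 0.075 in labelled Setd1bKO cells), Mrc1 (-1.29 ± 0.068 and -1.27 ± 0.068), Stab1 (-1.97 ± 0.19 and -2.05 ± 0.19) and Cybb (1.35 ± 0.11 and 1.44 ± 0.11) lay within about 1 SE of each other. These values are a description, since they contain the difference that chose the genes. For Tgfbi the response was 0.40 ± 0.074 in control and -1.55 ± 0.074 in labelled Setd1bKO cells, and for Mpeg1 -0.49 ± 0.052 and 0.02 ± 0.052. Adgre1 responded by 1.13 ± 0.043 and 1.52 ± 0.043. With Dex added, Tgfbi changed by -2.14 ± 0.074 in control and -0.47 ± 0.074 in labelled Setd1bKO cells, and Adgre1 by 0.52 ± 0.043 and 0.13 ± 0.043. The authors' deposited table gives log2 changes for this step, in control and then in labelled Setd1bKO cells, of -2.58 and -1.11 for Tgfbi, -1.21 and -1.19 for Cd5l, and 0.30 and -0.05 for Adgre1. The adjusted p of its Adgre1 values is 1.03e-07 in control and 0.497 in labelled Setd1bKO cells, so the latter value did not pass. The same table gives lower Mpeg1 (-0.25 and -0.28, DESeq2 adjusted p = 3.75e-10 and 3.16e-11) and Cybb (-0.26 and -0.40, adjusted p = 0.0151 and 0.000109) in both genotypes. Mrc1 passed there as lower in labelled Setd1bKO cells (-0.26, adjusted p = 0.000122) but not in control (0.001, adjusted p = 0.994). Stab1 passed as higher in labelled Setd1bKO cells (1.16, adjusted p = 0.000399) but not in control (0.62, adjusted p = 0.0698).

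**Figure D2:**
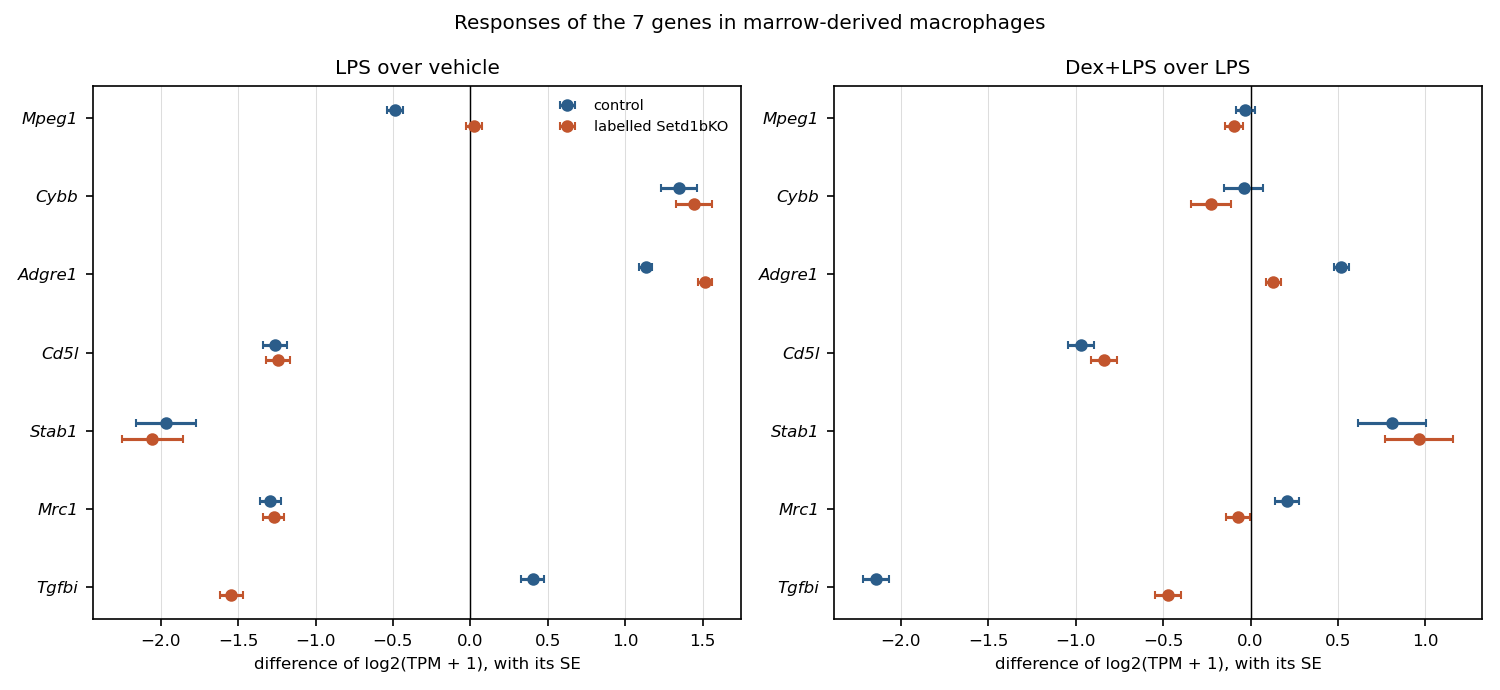
Change of log2(TPM + 1) of the 7 genes on LPS (left) and on Dex added to LPS (right), in control and labelled Setd1bKO marrow-derived cells, with bars of 1 SE. The points of the genotypes lie close together for Cd5l, Stab1 and Cybb. They lie on opposite sides of 0 for Tgfbi on LPS, for Mpeg1 on LPS, with labelled Setd1bKO cells near 0, and for Mrc1 on Dex.

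Over the 18 marrow-derived libraries the 7 genes did not form 1 pattern. Cd5l correlated with Tgfbi at r = 0.93 and with Mpeg1 at 0.91, and Adgre1 with Cybb at 0.92, while Adgre1 with Mrc1 gave -0.22 and Cybb with Mrc1 0.10. These are Pearson correlations of log2(TPM + 1) over libraries that share their 6 groups, and describe levels only. The genes most like each member, of 7308 with a mean of at least 5 TPM, were Sema4d (r = 0.99) and Glipr1 (r = 0.98) for Cd5l, Ms4a7 (r = 0.99) and Ifi27l2a (r = 0.99) for Mpeg1, Clec4a3 (r = 0.97), Tlr13 (r = 0.97) and C1qc (r = 0.97) for Stab1, and Bcl2a1b (r = 0.98) for Adgre1. For Cybb they were Cmklr1 (r = 0.99) and Tlr7 (r = 0.98), for Tgfbi Aif1 (r = 0.96) and Cd200r4 (r = 0.96), and for Mrc1 Bcl6 (r = 0.99), Alox5ap (r = 0.99) and Cd93 (r = 0.99). Ms4a7, a membrane protein of macrophages, was also the gene most like the mean of all 7 (r = 0.98).

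Most other macrophage surface receptors were lower too. Of a list of 40, 32 were tested, and 25 were lower and 2 higher under the Setd1bKO label with vehicle, where 15.4% of all genes were lower and 9.89% higher. The members are not in this list, which was drawn up with the members' results known. With LPS 25 were lower and 3 higher (12.4% and 29.0% of all genes), and with Dex and LPS 24 and 3 (11.5% and 23.5%). With median-of-ratios scaling the shares of all genes lower and higher became 19.9% and 15.9% with LPS and 16.5% and 12.9% with Dex and LPS. The list's median difference was -0.65 against -0.02 over all genes tested with vehicle, -0.62 against 0.10 over all genes tested with LPS and -0.55 against 0.07 over all genes tested with Dex and LPS. The largest loss was that of Fcgr1, the high-affinity IgG receptor CD64, which went from 37.7 ± 2.85 to 5.85 ± 0.588 TPM with vehicle (-2.50 ± 0.12, adjusted p = 2.11e-10) and from 92.9 ± 3.09 to 3.78 ± 0.61 TPM with LPS (-4.30 ± 0.12, adjusted p = 1.82e-13). The C-type lectin Clec4d (-1.97 ± 0.039), Ms4a7 (-1.93 ± 0.040) and the folate receptor Folr2 (-1.91 ± 0.085) followed with vehicle. The beta-glucan receptor Clec7a (-0.07) and Cd200r1 (-0.10) were the most expressed that did not pass the threshold with vehicle. The 2 that were higher with vehicle, named after their values were seen, were Fcgr4 (0.51 ± 0.067) and Clec4e (0.59 ± 0.083).

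**Figure D3:**
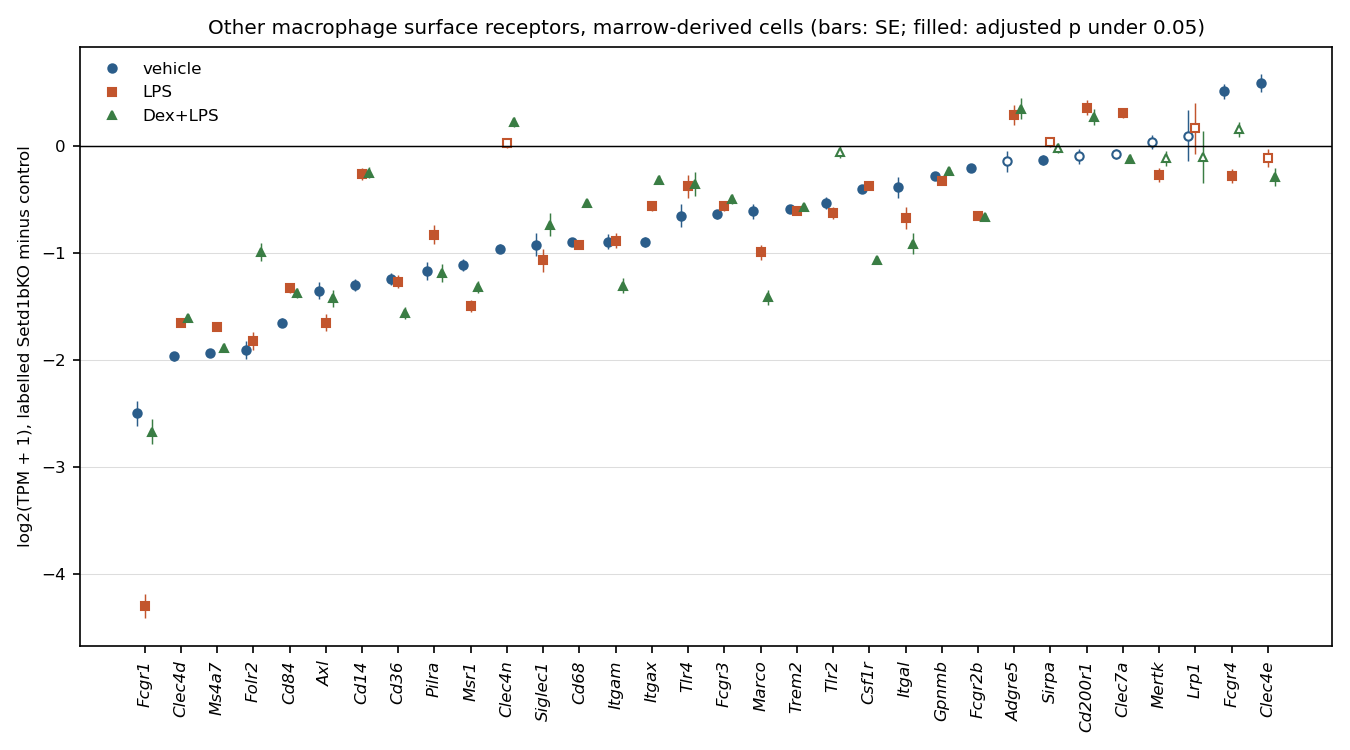
Difference of log2(TPM + 1), labelled Setd1bKO minus control, of 32 other macrophage surface receptors with each treatment, with bars of 1 SE and filled points for adjusted p under 0.05. Filled points below 0 number 25 with vehicle, 25 with LPS and 24 with Dex and LPS.

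Genes of the other lists moved in both directions. The complement subunits C1qa, C1qb and C1qc were lower with every treatment (C1qc -1.48 ± 0.065, C1qa -1.04 ± 0.094 and C1qb -0.66 ± 0.068 with vehicle). Among partners of Cybb in the NADPH oxidase, Ncf1 (p47phox, -0.89 ± 0.044) and Rac1 (-0.16 ± 0.026) were lower and Cyba (p22phox, 0.28 ± 0.034) was higher with vehicle, and Rac2 (-0.06) did not pass. Ncf1 was also lower and Cyba also higher with LPS (-0.44 ± 0.044 and 0.18 ± 0.034) and with Dex and LPS (-0.64 ± 0.044 and 0.16 ± 0.034). Rac2 was lower with both (-0.12 ± 0.045 and -0.29 ± 0.045), whereas Rac1 had 0.05 ± 0.026 with LPS, which did not pass (adjusted p = 0.118), and was higher with Dex and LPS (0.07 ± 0.026, adjusted p = 0.0382). Among relatives of the members by domain, 4 of 14 were tested, and the scavenger receptors Msr1 (-1.11 ± 0.055) and Marco (-0.61 ± 0.071), also in the receptor list, were lower. Of 7 tested genes of TGF-beta signalling, the pathway that induces Tgfbi, the receptor Tgfbr1 (-0.79 ± 0.16) and the inhibitor Skil (-0.97 ± 0.11) were lower, and Tgfb1 (0.14) and Smad2 (-0.04) did not pass. Of 17 tested macrophage transcription factors 5 were lower and 1 higher with vehicle, where 15.4% of all genes were lower and 9.89% higher. Maf (-0.96 ± 0.12), Bhlhe40 (-0.69 ± 0.12), Cebpa (-0.58 ± 0.11) and Mitf (-0.49 ± 0.15) changed most, and Spi1, which encodes PU.1, did not pass (0.07), nor did Cebpb (0.27). Nr1h3, the oxysterol receptor LXR alpha, was lower with vehicle (-0.37 ± 0.060) and with LPS (-1.42 ± 0.060). With LPS and with Dex and LPS the counts lower and higher were 6 and 1, then 8 and 3, for the transcription factors, 2 and 1 with both for the domain relatives, and 2 and 2, then 3 and 1, for TGF-beta signalling. Of all genes 12.4% were lower and 29.0% higher with LPS, and 11.5% and 23.5% with Dex and LPS. With LPS the largest changes among the factors were those of Nr1h3, Bhlhe40 (-1.06 ± 0.12), Maf (-0.76 ± 0.12) and Spic (-0.74 ± 0.18), the last a factor of red-pulp macrophages.

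RAW264.7 cells had much less of most of the 7 genes. Cd5l and Mrc1 were at 0 to 0.4 and 0 to 0.6 TPM in the 12 libraries of the IFNB1 experiment, and Stab1 at 0.1 to 0.9 TPM, so none of the 3 passed the filter of 1 TPM in 3 libraries there. In the 16 h and 6 h experiments Stab1 passed it at group means of 0.124 to 4.68 TPM. At 16 h it did so only through Setd1aDel libraries with vehicle and with Dex and LPS, since no wild-type library exceeded 0.842 TPM. The tables were normalized separately, and levels set side by side across them carry that limit. Neither the Setd1aDel difference nor the responses of these cells entered the choice of the genes, so they were tested.

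Cybb was higher in Setd1aDel than in wild-type cells in all 9 comparisons, most of all at 16 h with vehicle. In the 16 h experiment the wild-type libraries stood at 42.4, 49.7 and 50.0 TPM with vehicle, 341, 338 and 309.8 with LPS and 358, 339.9 and 371 with Dex and LPS. The Setd1aDel libraries stood at 358, 336 and 356 TPM with vehicle, at 779.5, 704 and 699 with LPS and at 855, 829 and 890.4 with Dex and LPS. Setd1aDel libraries with vehicle thus overlapped wild-type libraries with LPS, and the genotypes' means differed 7.38-fold with vehicle (2.86 ± 0.063, adjusted p = 1.33e-14) and 2.21-fold with LPS (1.14 ± 0.063, adjusted p = 4.26e-10). With Dex and LPS the difference was 1.27 ± 0.063, adjusted p = 9.57e-11.

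In the 6 h experiment Cybb was at 79.6, 80.8 and 81.6 TPM in wild-type and 133, 141 and 131 TPM in Setd1aDel vehicle libraries, and with LPS at 323, 327 and 347 TPM in the former and 383, 408 and 397 TPM in the latter. The groups did not overlap. With LPS, Setd1aDel libraries lay wholly above wild type for 17.4% of all genes tested, and this share was not counted with vehicle. The differences were smaller than at 16 h (0.73 ± 0.042, adjusted p = 1.57e-10 with vehicle, 0.25 ± 0.042, adjusted p = 0.000209 with LPS). With Dex and LPS the difference was 0.47 ± 0.042, adjusted p = 1.45e-07, and with Dex alone 0.80 ± 0.042, adjusted p = 4.51e-11. A joint fit of both experiments, added after the values were seen, gave a 16 h minus 6 h difference of the Setd1aDel effect of 2.13 ± 0.075, adjusted p = 9.55e-21 with vehicle, 0.89 ± 0.075, adjusted p = 1.98e-11 with LPS and 0.80 ± 0.075, adjusted p = 1.76e-10 with Dex and LPS. The wild-type vehicle libraries of the experiments differ as well: Lyz2 had a mean of 1406 TPM there at 16 h and 7533 TPM at 6 h, against 21388 and 9847 TPM in the Setd1aDel cells. The summed macrophage markers (9 of 10 listed) were at 3048 to 3466 TPM in wild-type and 23529 to 24696 TPM in Setd1aDel vehicle libraries at 16 h, and at 9797 to 10165 and 12159.6 to 13064 TPM at 6 h. Their part in the Cybb difference was not tested. In the joint fit the hours of vehicle or Dex changed together with the experiment, so these cannot be told apart. Its p-values measure the spread among libraries within each experiment.

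In the IFNB1 experiment Cybb was at 287, 290.2 and 310.3 TPM in wild-type and 580.5, 624 and 565 TPM in Setd1aDel libraries with LPS, and with IFNB1 added at 302, 301 and 295 TPM in the former and 463, 504 and 542 TPM in the latter. The Setd1aDel difference was 0.99 ± 0.055, adjusted p = 8.68e-08 with LPS and 0.74 ± 0.055, adjusted p = 9.72e-07 with IFNB1 added. The groups did not overlap, and with LPS 21.2% of all genes tested lay wholly above wild type. This share was not counted with IFNB1 added.

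**Figure D4:**
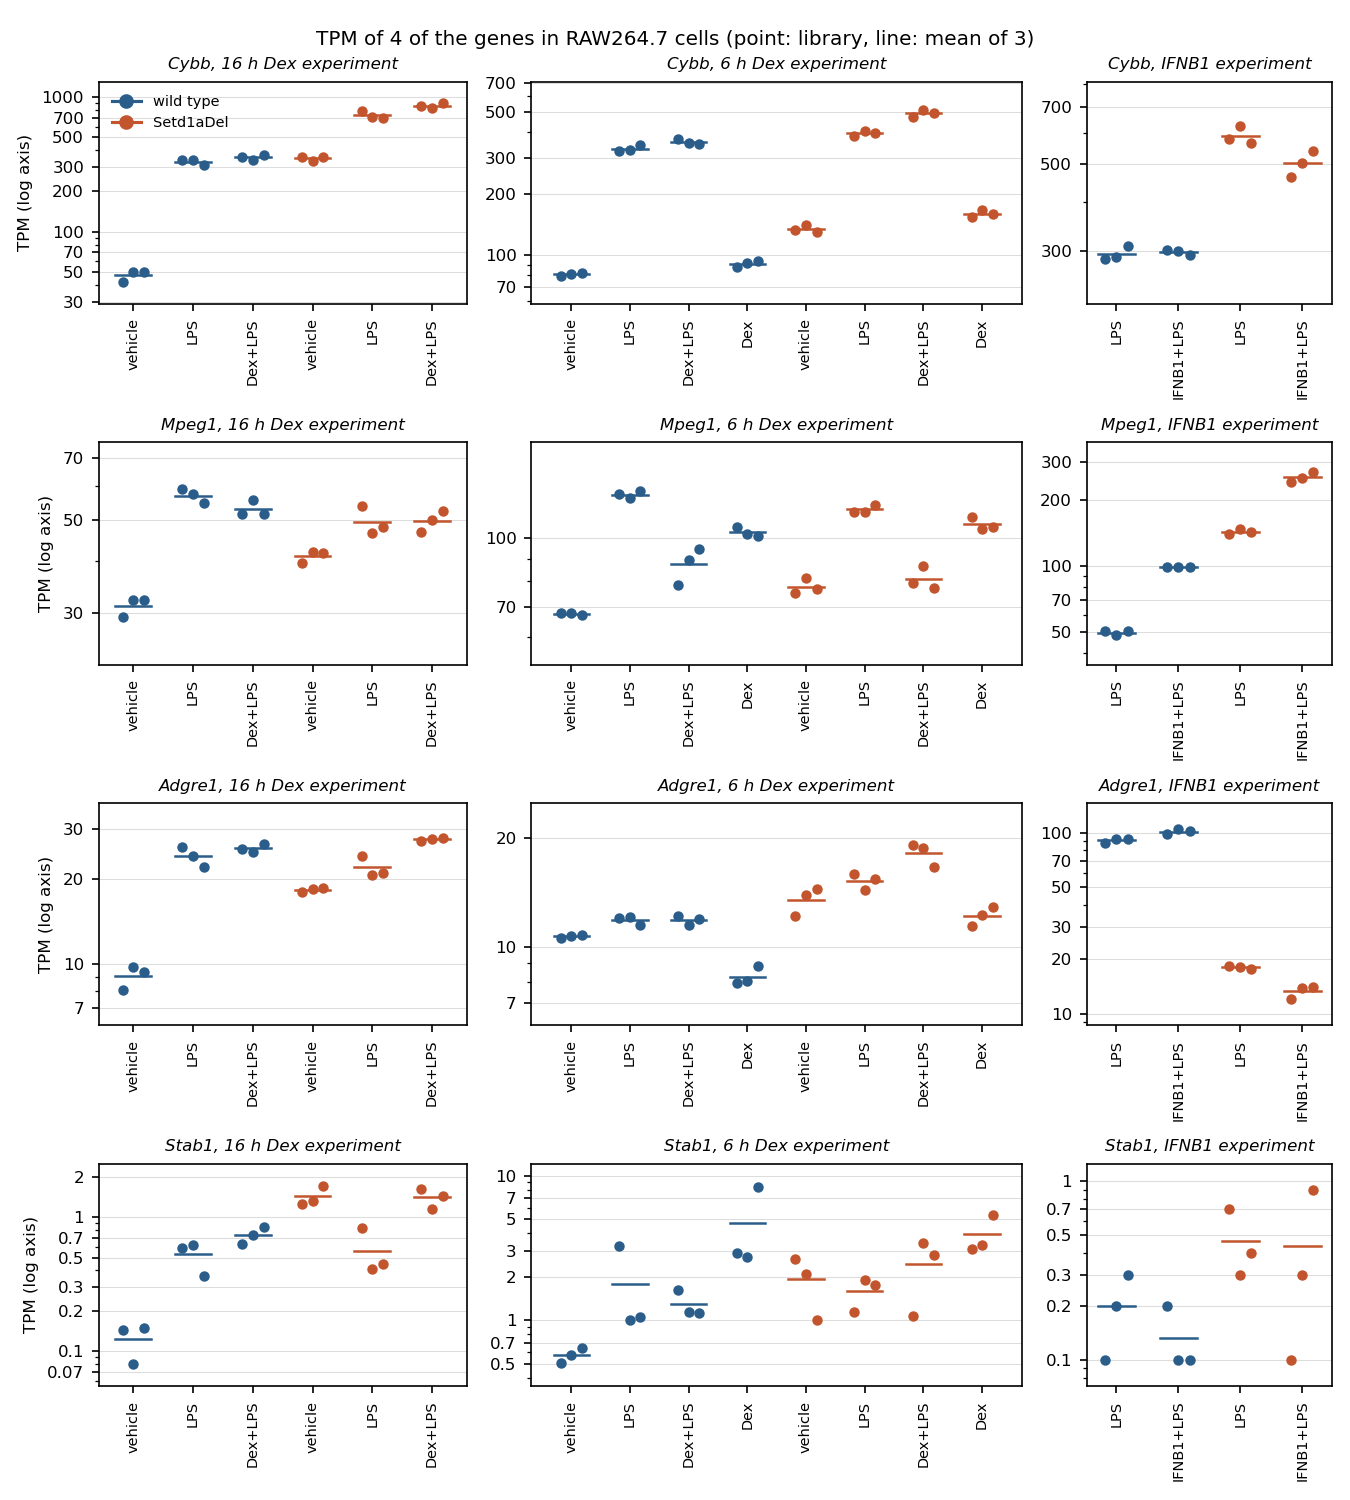
TPM (log axis, a separate range per panel) of Cybb, Mpeg1, Adgre1 and Stab1 in each RAW264.7 library, with 3 points and their mean per group and 1 column per experiment. Cybb is higher in Setd1aDel libraries at each treatment, Mpeg1 is higher in them without overlap in the IFNB1 experiment, and Adgre1 is far below wild type there (18.1 against 90.8 TPM in the mean with LPS).

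Adgre1 differed in opposite directions between the experiments. At 16 h it was at 8.06, 9.74 and 9.39 TPM in wild-type and 17.9, 18.5 and 18.6 TPM in Setd1aDel vehicle libraries (0.95 ± 0.069, adjusted p = 3.24e-08), and with LPS at 25.9, 24.1 and 22.1 TPM in wild-type and 24.1, 20.7 and 21.0 TPM in Setd1aDel libraries, where the groups overlapped and the difference did not pass (-0.13 ± 0.069, adjusted p = 0.13). It passed as lower without the third wild-type or the first Setd1aDel LPS library (adjusted p = 0.0437 and 0.027, over all alternatives 0.027 to 0.776). With Dex and LPS it was 0.10 ± 0.069 higher (adjusted p = 0.218), and 0.25 with scaling, which passed (adjusted p = 0.0024). At 6 h it ranged from 10.6 to 10.8 TPM in wild-type and 12.2 to 14.4 TPM in Setd1aDel vehicle libraries, and was higher in Setd1aDel cells with all 4 treatments, by 0.30 with vehicle, 0.34 with LPS, 0.58 with Dex and LPS and 0.51 with Dex (adjusted p = 0.00257, 0.000995, 2.64e-06 and 1.62e-05). In the IFNB1 experiment it was at 87.5, 92.8 and 92.0 TPM in wild-type and 18.3, 18.2 and 17.7 TPM in Setd1aDel libraries with LPS, 5.02-fold lower (-2.27 ± 0.055, adjusted p = 9.09e-11). With IFNB1 added it was at 98.3, 105 and 102 TPM in wild-type and 12.0, 13.9 and 14.0 TPM in Setd1aDel libraries (-2.85 ± 0.055, adjusted p = 1.56e-11). Wild-type cells with 6 h of LPS thus had a mean of 11.9 TPM in the 6 h table and 90.8 TPM in the IFNB1 table, whereas the Setd1aDel means were 15.3 and 18.1 TPM. The joint fit gave a 16 h minus 6 h difference of the Setd1aDel effect of 0.64 ± 0.095, adjusted p = 4.18e-06 with vehicle, -0.46 ± 0.095, adjusted p = 0.000184 with LPS and -0.47 ± 0.095, adjusted p = 0.000105 with Dex and LPS.

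Mpeg1 was at 29.3, 32.2 and 32.2 TPM in wild-type and 39.5, 41.8 and 41.6 TPM in Setd1aDel vehicle libraries at 16 h (0.38 ± 0.059, adjusted p = 7.89e-05). With LPS it was at 59.0, 57.6 and 54.7 TPM in the former and 53.9, 46.6 and 48.0 TPM in the latter, lower in Setd1aDel cells by a little (-0.20 ± 0.059, adjusted p = 0.00768), and this call was lost with median-of-ratios scaling (-0.10, adjusted p = 0.114, over all alternatives 0.00116 to 0.114). At 6 h it was higher in Setd1aDel cells with vehicle (0.20 ± 0.053, adjusted p = 0.0111), a call that did not pass without the second Setd1aDel vehicle library (adjusted p = 0.0607, over all alternatives 0.00125 to 0.0607), and did not pass with the other 3 treatments (-0.11, -0.11 and 0.06 with LPS, Dex and LPS, and Dex). Without the first wild-type library it passed as lower with Dex and LPS (-0.18, adjusted p = 0.0113, over all alternatives 0.0113 to 0.56). In the IFNB1 experiment Mpeg1 was at 50.4, 48.4 and 50.4 TPM in wild-type and 141, 148 and 143 TPM in Setd1aDel libraries with LPS, 2.90-fold higher (1.52 ± 0.039, adjusted p = 1.43e-10). No groups there overlapped. With LPS in that experiment Setd1aDel libraries lay wholly above wild type for 21.2% of all genes tested and wholly below for 30.8%, against 18.8% and 43.6% at 16 h and 17.4% and 21.5% at 6 h.

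Stab1 was at 0.143, 0.0797 and 0.148 TPM in wild-type and 1.25, 1.32 and 1.72 TPM in Setd1aDel vehicle libraries at 16 h (1.11 ± 0.11, adjusted p = 7.66e-07), and was higher in Setd1aDel cells with Dex and LPS too (0.47 ± 0.11, adjusted p = 0.0014). As Stab1 passed the filter at 16 h only through these Setd1aDel libraries, the filter favoured both differences, and their p-values carry that limit. Single libraries stood apart at 6 h: 3.25, 1.01 and 1.06 TPM in wild-type cells with LPS and 2.91, 2.75 and 8.39 TPM with Dex. No Setd1aDel difference of Stab1 passed at 6 h (0.85 with vehicle, adjusted p = 0.0904), although that with vehicle passed with a pseudocount of 0.1 (1.48, adjusted p = 0.0345).

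Counted over the members tested, the Setd1aDel difference at 16 h was higher for 4 of 4 with vehicle (15.3% of all genes higher), higher for 1 and lower for 1 with LPS (17.5% and 42.4%), and higher for 2 with Dex and LPS (17.0%). The counts with vehicle and with Dex and LPS include Stab1, which passed the filter only through the Setd1aDel libraries of those treatments. With median-of-ratios scaling 26.7% of all genes were higher and 29.9% lower with LPS, where only the higher member passed, and 30.4% were higher with Dex and LPS, where Adgre1 also passed. At 6 h it was higher for 3 of 4 with vehicle (6.58% of all genes), and for 2 of 4 with LPS (9.19%), with Dex and LPS (13.1%) and with Dex (6.20%). Of all genes 12.3% were lower at 6 h with LPS, 13.1% with Dex and LPS and 7.37% with Dex, and 47.6% at 16 h with Dex and LPS. In the IFNB1 experiment 2 of 3 were higher and 1 lower with LPS (17.7% and 24.9%) and likewise with IFNB1 added (15.8% and 38.4%). In the joint fit the Setd1aDel effect was higher at 16 h than at 6 h for 2 of 4 with vehicle (11.6%), higher for 1 and lower for 1 with LPS (13.6% and 27.8%) and with Dex and LPS (11.9% and 34.6%). Median-of-ratios scaling moved the median of all genes by 0.14 in the 16 h comparison with Dex and LPS, 0.13 in the IFNB1 comparison and 0.15 in the joint one with Dex and LPS, and in 23 of 28 comparisons it moved the share of calls that were higher by over 10 points, from a range of 20.9 to 75.7% to one of 36.8 to 65.4%. Of the 28 other surface receptors tested with vehicle, 21 were higher and 3 lower in Setd1aDel cells at 16 h (15.3% of all genes higher and 32.9% lower), and 9 and 5 at 6 h (6.58% of all genes higher and 15.6% lower). With median-of-ratios scaling 22.0% of all genes were higher and 21.0% lower with vehicle at 16 h, and 10.8% and 7.97% at 6 h. The receptors were not counted under this scaling. With LPS in the IFNB1 experiment 18 of 29 were higher and 5 lower (17.7% and 24.9% of all genes).

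**Figure D5:**
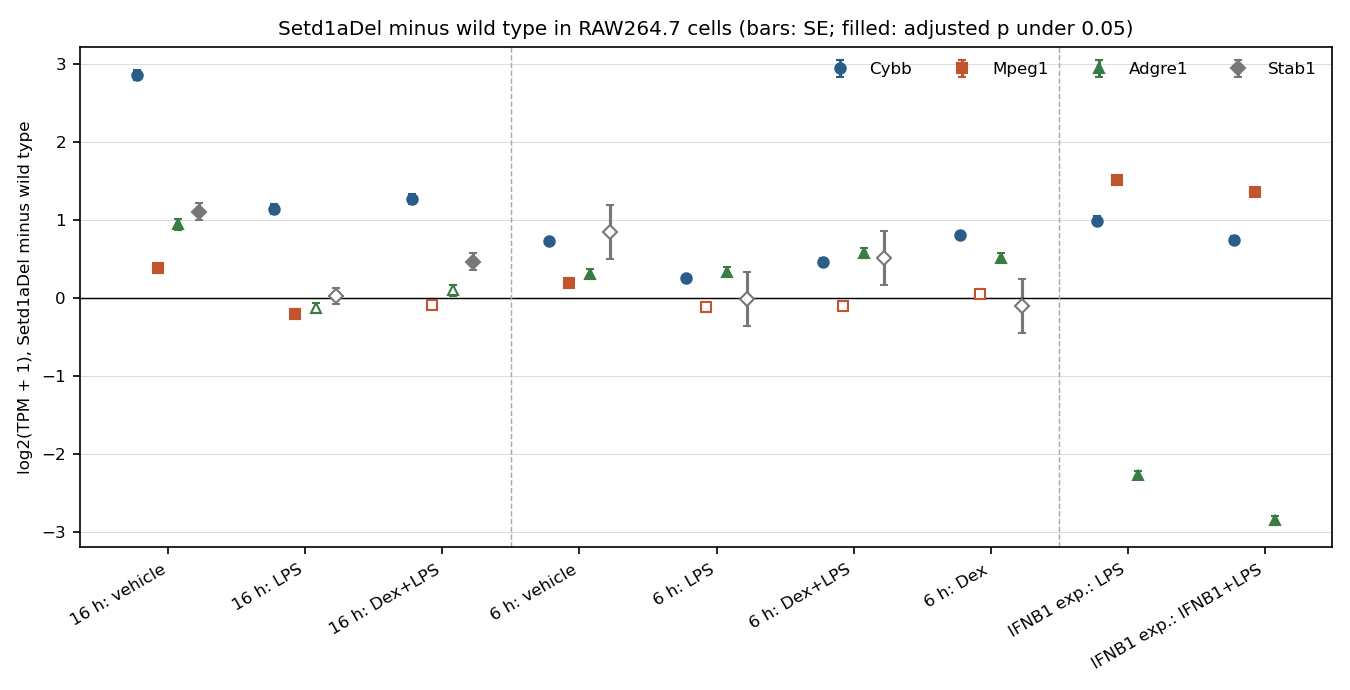
Difference of log2(TPM + 1), Setd1aDel minus wild type, of Cybb, Mpeg1, Adgre1 and Stab1 in the 9 RAW264.7 comparisons, with bars of 1 SE and filled points for adjusted p under 0.05. Cybb lies above 0 throughout, Adgre1 lies between -0.13 and 0.95 in the 16 h and 6 h experiments and at -2.27 and -2.85 in the IFNB1 experiment, where Mpeg1 is at 1.52 and 1.35.

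LPS raised Cybb and Mpeg1 in wild-type RAW264.7 cells of both Dex experiments. At 16 h 4 of 4 members rose (17.4% of all genes, 38.8% with scaling, which moved the median of all genes by 0.38), by 2.77 ± 0.063, adjusted p = 1.53e-15 for Cybb, 1.32 ± 0.069, adjusted p = 4.52e-11 for Adgre1, 0.85 ± 0.059, adjusted p = 1.53e-09 for Mpeg1 and 0.44 ± 0.11, adjusted p = 0.00147 for Stab1. The Stab1 rise was between wild-type means of 0.124 and 0.527 TPM, both near the floor. Stab1 entered this test only because Setd1aDel libraries passed the filter, so its call carries that limit. At 6 h 2 of 4 rose (19.5% of all genes, 34.2% with scaling, median moved by 0.24), Cybb by 2.03 ± 0.042, adjusted p = 3.51e-19 and Mpeg1 by 0.88 ± 0.053, adjusted p = 1.10e-11. Adgre1 (0.14, adjusted p = 0.0718) and Stab1 (0.72, adjusted p = 0.0696) did not pass and did with scaling (0.38 and 0.84). Without the second wild-type LPS library Stab1 passed as well (0.91, adjusted p = 0.0451, over all alternatives 0.0244 to 0.366).

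The LPS response was lower in Setd1aDel than in wild-type cells at 16 h for all 4 genes tested. The difference of the responses, Setd1aDel minus wild type, was -1.72 ± 0.089, adjusted p = 6.38e-10 for Cybb, -1.08 ± 0.15, adjusted p = 4.52e-05 for Stab1, -1.07 ± 0.098, adjusted p = 3.90e-07 for Adgre1 and -0.59 ± 0.084, adjusted p = 4.99e-05 for Mpeg1, where 20.3% of all genes had a lower response. The Stab1 value uses the Setd1aDel vehicle libraries, among those through which alone it passed the filter, so the filter favoured it. In Setd1aDel cells themselves Cybb changed by 1.05 ± 0.063 and Stab1 by -0.64 ± 0.11 on LPS. At 6 h 2 of 4 had a lower response (2.63% of all genes), Cybb (-0.48 ± 0.059, adjusted p = 3.57e-05) and Mpeg1 (-0.31 ± 0.075, adjusted p = 0.0197). The Mpeg1 call at 6 h was lost without the second Setd1aDel vehicle library (adjusted p = 0.0568, over all alternatives 0.00593 to 0.0568). Adgre1 had 0.03 ± 0.093, adjusted p = 0.904 there.

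Dex under LPS changed few of the members in wild-type cells. Added to LPS for 16 h in wild-type cells it changed 0 of 4 members in limma (47.6% of all genes in either direction), with 0 of 4 at an unadjusted p under 0.05, and Mpeg1 passed as lower with median-of-ratios scaling (-0.22). The authors' deposited table also has Mpeg1 lower there (-0.22, DESeq2 adjusted p = 0.000236), and no other member passed in it. For Setd1aDel cells at 16 h that table has Stab1 (1.27, adjusted p = 2.63e-05), Adgre1 (0.26, adjusted p = 0.00039) and Cybb (0.17, adjusted p = 0.0124) higher, and Mpeg1 did not pass (-0.06, adjusted p = 0.585). At 6 h Dex under LPS lowered Mpeg1 in wild-type cells (126, 123 and 128 TPM with LPS and 78.7, 89.4 and 94.4 TPM with Dex and LPS, -0.52 ± 0.053, adjusted p = 3.91e-07), 1 of 4 members where 10.6% of all genes fell. Cybb passed as higher there without the third wild-type LPS library (0.14, adjusted p = 0.0328, over all alternatives 0.0328 to 0.253). The authors' deposited table gives -0.57 (adjusted p = 1.19e-24) for Mpeg1 in wild-type and -0.59 (adjusted p = 1.05e-26) in Setd1aDel cells for the same step. Without LPS, Dex moved Mpeg1 the other way, from 68.0, 67.9 and 67.1 to 106, 103 and 101 TPM (0.60 ± 0.053, adjusted p = 3.48e-08). Dex alone also raised Stab1 (1.71 ± 0.35, adjusted p = 0.000687) and Cybb (0.18 ± 0.042, adjusted p = 0.00278) and lowered Adgre1 (-0.34 ± 0.066, adjusted p = 0.000413), so 3 of 4 rose and 1 fell where 12.0% of all genes rose and 24.8% fell. The Dex response under LPS did not differ past the threshold between the genotypes at 16 h (limma, 0 of 4 members, 2 of 4 at an unadjusted p under 0.05, 10.6% of all genes). Without the first Setd1aDel LPS library Stab1 passed there (0.56, adjusted p = 0.0185, over all alternatives 0.0185 to 0.18). At 6 h it was higher in Setd1aDel cells for Cybb alone (0.21 ± 0.059, adjusted p = 0.0404, 3.25% of all genes), and this call was lost in 10 of 17 alternatives (adjusted p = 0.0284 to 0.112), 8 of them the omission of 1 library.

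IFNB1 added to LPS raised Mpeg1 in both genotypes. Wild-type libraries went from 50.4, 48.4 and 50.4 to 99.5, 98.8 and 99.7 TPM, 2.00-fold (0.98 ± 0.039, adjusted p = 1.30e-08), and Setd1aDel libraries from 141, 148 and 143 to 242, 253 and 271 TPM (0.82 ± 0.039). The authors' deposited table gives 1.09 and 1.01 for the same genotypes (adjusted p = 4.35e-114 and 1.84e-109). Adgre1 rose slightly in wild-type cells (0.16 ± 0.055, adjusted p = 0.0422, and 0.25 with median-of-ratios scaling), a call lost in 6 of 11 alternatives (adjusted p = 0.00331 to 0.139), among them the omission of any wild-type LPS library and of wild-type library 2 or 3 with IFNB1. Thus 2 of 3 members rose in wild-type cells (9.50% of all genes), and Cybb did not pass (0.02 ± 0.055, adjusted p = 0.842). The response to IFNB1 was lower in Setd1aDel than in wild-type cells for Adgre1 (-0.58 ± 0.078, adjusted p = 0.0013), 1 of 3 where 8.01% of all genes were lower. Mpeg1 (-0.16 ± 0.056, adjusted p = 0.0816) and Cybb (-0.25 ± 0.078, adjusted p = 0.0639) did not pass, and both did without the third Setd1aDel library with IFNB1 (adjusted p = 0.0154 and 0.0169, over all alternatives 0.0154 to 0.435 and 0.0169 to 0.17).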

How the data were processed

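RNA levels were read from 3 tables that the authors deposited. Per the submitters' processing notes, reads were quantified with Salmon 0.10.2 and compared with DESeq2 in R 3.6.0, and GRCm38.p6 and mm10 are named as builds. The marrow-derived and the 16 h and 6 h RAW264.7 values are TPM per the file headers. The authors deposited the IFNB1 values with no unit in the header; they were taken as TPM because their library sums resemble the others and their ratio to the deposited normalized mean counts followed that of the 6 h table across genes (r = 0.76, 7806 genes). The authors also deposited DESeq2 mean normalized counts (a signal per gene), log2 fold changes with their standard errors, and p-values with their adjusted values, which are quoted only where the authors' deposited table is named. TPM keeps no read depth, so counting error is unknown.

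From these values log2(TPM + 1) was computed, genes of at least 1 TPM in 3 libraries of an experiment were kept (9159 marrow-derived, and for RAW264.7 8964 at 16 h, 8981 at 6 h and 10923 with IFNB1), and limma 3.58.1 in R 4.3.3 was fitted per experiment with 1 mean per group and a variance trend. Tests are two-sided, and p-values were adjusted by Benjamini-Hochberg over all genes of a comparison, with a threshold of 0.05. Errors after ± are SE for log2 changes and SD (n = 3) for TPM means. The fit was run on simulated data with independent noise per value. Those data held no shift in scaling and no deviation shared within a library, so they do not bear on calls that depend on these. Groups came from the sample labels, and every sample column was used. The 7 genes and the gene lists were chosen with earlier results of these data known. Genes of a list were named by rule (the 4 called with the largest change in a comparison and the 2 most expressed that were not called), and genes like a member were the 3 with the highest correlation, or 5 for the mean of the members, and the first of these are printed. Values of 1 gene of these lists are not reported here. Figures were drawn with matplotlib 3.10.9. The alternatives tried were scaling by median of ratios, testing without the filter, 0.1 as pseudocount, the replicate number as a block, fits restricted to the groups compared, and the omission of each library.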

Additional observations from a re-analysis of the deposited data

Results flagged for a closer look

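Effects that differed between the groups of the study were found in RAW264.7 cells for the 4 genes in which they could be tested there. Cd5l, Mrc1 and Tgfbi entered no test in those cells, and a difference of responses between the genotypes of the marrow-derived cells was not tested, since it contains the difference that chose the genes. Among those responses that of Tgfbi to LPS was 0.40 ± 0.074 in control and -1.55 ± 0.074 in labelled Setd1bKO cells. The LPS response was lower in Setd1aDel than in wild-type cells at 16 h for Cybb (-1.72 in log2), Stab1 (-1.08), Adgre1 (-1.07) and Mpeg1 (-0.59), and at 6 h for Cybb (-0.48) and Mpeg1 (-0.31). Stab1 passed the filter at 16 h only through Setd1aDel libraries, among them those with vehicle. The response to Dex under LPS was higher in Setd1aDel cells for Cybb at 6 h (0.21), a call lost in 10 of 17 alternatives, among them median-of-ratios scaling, the fit of the compared groups only and the omission of 1 library in 8 cases. The response to IFNB1 was lower in them for Adgre1 (-0.58). These are tests of the difference itself, with the adjusted p given in the report.

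The Setd1aDel effect differed between the 16 h and 6 h experiments for Adgre1 (0.64 higher at 16 h with vehicle, -0.46 with LPS and -0.47 with Dex and LPS) and for Cybb (2.13, 0.89 and 0.80). These comparisons were chosen after the values were seen, and the hours of treatment cannot be told apart from the experiment in them. With LPS, every Setd1aDel library of the IFNB1 experiment had more Mpeg1 than the wild-type libraries (a mean ratio of 2.90), whereas every Setd1aDel library of the 16 h and the 6 h experiments had less. Of all genes tested 21.2% lay wholly above wild type in the IFNB1 experiment, and 43.6% and 21.5% wholly below it at 16 h and 6 h. The difference of Mpeg1 did not pass at 6 h (-0.11, limma adjusted p = 0.157), and at 16 h its call was lost with median-of-ratios scaling (adjusted p = 0.114). Adgre1 did the reverse against the 6 h experiment, with a mean ratio of 0.199 in the IFNB1 experiment (30.8% of all genes wholly below there, and 17.4% wholly above at 6 h). These contrasts between tables were not tested, since the tables were normalized separately.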

How the results depend on the processing

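Of 102 member results with a test, 61 passed the threshold, and 55 of these passed it in the same direction under every alternative run. Calls were lost under some alternative for 5, and 1 turned: the marrow-derived LPS response of Mpeg1, 0.23 with median-of-ratios scaling. The Dex response of Mrc1, not called, turned to -0.12 with it. Scaling also changed the number of members called in the marrow-derived Dex response from 4 to 7, in the wild-type 16 h Dex response from 0 to 1, in the Setd1aDel difference at 16 h with LPS from 2 to 1, in the wild-type 6 h LPS response from 2 to 4 and in the 6 h difference of Dex responses from 1 to 0. Without the filter, members called went from 2 to 1 in the wild-type IFNB1 response and from 3 to 5 in the Setd1aDel difference with IFNB1 and LPS, where more members were tested, and genes called in the difference of IFNB1 responses went from 1237 to 818. With only the compared groups fitted, the 6 h difference of Dex responses had 0 members, and genes called went from 475 to 305 there, from 2350 to 1356 in the 6 h Setd1aDel difference with Dex and LPS and from 1219 to 668 in that with Dex. The causes were not tested.

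Leaving out 1 library gave 0 to 1 members in the 16 h difference of Dex responses, 1 to 2 in the wild-type 6 h Dex response, 0 to 1 in the 6 h difference of Dex responses, 1 to 2 in the 6 h difference of LPS responses, 1 to 2 in the wild-type IFNB1 response and 1 to 3 in the difference of IFNB1 responses. Moves within 1.5 times the main count gave 4 to 6 in the marrow-derived Dex response and 2 to 3 in the 16 h Setd1aDel difference with LPS. They also gave 2 to 3 in the wild-type 6 h LPS response and in the 6 h Setd1aDel differences with vehicle and with Dex and LPS. Genes called ranged from 278 to 522 in the 6 h difference of Dex responses (315 or fewer without the third wild-type LPS, the second wild-type Dex and LPS, or the first or second Setd1aDel LPS library), and from 553 to 1876 in the difference of IFNB1 responses (1876 without the third Setd1aDel library with IFNB1, and 716 or fewer without wild-type LPS library 1 or 2, wild-type IFNB1 library 1 or 2, Setd1aDel LPS library 2, or Setd1aDel IFNB1 library 1 or 2).

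The replicate numbers were also used as a block. Deviations of same-numbered libraries from their group means correlated at -0.322 to 0.278, with medians near 0. The own number was best for 10 of 18 marrow-derived, and for 3 of 18, 6 of 24 and 4 of 12 RAW264.7 libraries. These values do not decide whether libraries of the same number share an animal or a culture. The replicate block gave 2 in place of 1 member called in the wild-type 6 h Dex response and changed no other count of members called.

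Read depth is unknown, and Stab1 in RAW264.7 cells lies near 1 TPM, where its differences depend most on the pseudocount.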

Other observations

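The 32 other surface receptors were also followed through the treatments of the marrow-derived cells, averaged over both genotypes. LPS raised 12 and lowered 18 of them, with a median of -0.48 against -0.43 over all genes tested, of which 24.2% rose and 64.4% fell. Dex under LPS raised 8 and lowered 19, with a median of -0.20 against 0.17, where 52.7% of all genes rose and 16.9% fell. In RAW264.7 cells of the 6 h experiment, Setd1aDel cells had 8 of 28 higher and 8 lower with LPS (9.19% and 12.3% of all genes), 13 and 5 with Dex and LPS (13.1% and 13.1%), and 8 and 6 with Dex alone (6.20% and 7.37%). At 16 h they had 18 higher and 7 lower with LPS (17.5% and 42.4% of all genes) and 17 and 10 with Dex and LPS (17.0% and 47.6%). Scaling changes these shares of all genes to 42.0% higher and 42.5% lower on LPS and 24.8% and 31.0% on Dex in the marrow-derived cells, and to 26.7% and 29.9% with LPS and 30.4% and 30.1% with Dex and LPS at 16 h, and the receptors were not counted under it. Ms4a7, the gene whose pattern was most like that of the 7 genes in marrow-derived cells, fell under the Setd1bKO label from 798 ± 19.3 to 208 ± 4.25 TPM with vehicle (SD, n = 3). It was picked by its likeness, over the same libraries, to genes chosen for their loss. Its fall was thus built into the choice and is a description.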
